A study of Mus musculus with 7 samples.

Results

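Genes that encode 10 inflammatory cytokines were followed in whole colon tumors: Il1a, Il1b, Il6, Il11, Lif, Osm, Tnf, Il17a, Il22 and Ifng. They were taken from the gene count table by matching Ensembl identifiers to symbols, which placed all 10 among the 43346 genes listed. The tumors came from C57BL6/J mice given bone marrow (BM) that was either Dnmt3a(+/+), 3 tumors, or Dnmt3a(+/-), 4 tumors. Dnmt3a encodes a DNA methyltransferase, and its loss in blood cells models clonal hematopoiesis (CH). Per the methods, donors in both groups carried Mx1-Cre, an interferon-inducible recombinase, and had received poly(I:C) before their BM was transplanted into lethally irradiated, congenic wild-type recipients. Epithelium, fibroblasts, vessels and any host leukocytes that survived irradiation therefore kept both Dnmt3a alleles in every mouse. The labels give the recipients' age as 8 weeks and the methods a younger one. After transplantation every mouse received the carcinogen azoxymethane (AOM), 10 mg/kg, followed by 3% dextran sulfate sodium (DSS) in 3 cycles of 1 week with 2 weeks off. This induces colitis-associated cancer (CAC). BMT18 and BMT8 are prefixes of the sample labels and are read here as the names of 2 transplantation experiments. BMT18 supplied Dnmt3a(+/+)-BM tumors 1 and 2 and Dnmt3a(+/-)-BM tumors 1 and 2, and BMT8 supplied Dnmt3a(+/+)-BM tumor 3 and Dnmt3a(+/-)-BM tumors 3 and 4.

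Cytokines are secreted proteins through which immune, stromal and epithelial cells of an inflamed gut signal to each other. IL-1 and TNF act early and turn on NF-kB, the IL-6 family (IL-6, IL-11, LIF and oncostatin M) signals through the shared gp130 receptor chain to STAT3, and lymphocytes supply IL-17A, IL-22 and interferon-gamma. Several of them are released by myeloid cells carrying CH mutations, and in mice IL-6, IL-11, IL-17A and IL-22 have each been tied to growth of colitis-associated tumors.

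Estimated counts summed to between 38472738 and 64314999 per tumor. Values below are counts per 1e6 counts (CPM) on library sizes scaled by edgeR's trimmed mean of M values (TMM). Dnmt3a itself was between 20.2 and 24.3 CPM with Dnmt3a(+/+) BM and between 22.0 and 43.0 CPM with Dnmt3a(+/-) BM, which does not check the labels, since whole tumors are largely recipient tissue. On the leading principal component, with 44.0% of the variance, Dnmt3a(+/-)-BM tumor 2 scored 88.0 and the other 6 tumors spread from -53.5 to 26.9. Results are given with and without tumor 2.

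The cytokine genes differed widely in abundance. Per kilobase of exon, Il1b had the highest mean level, 18.8 ± 15.3 CPM per kb (SD, n = 7), and was above the next gene in 7 of 7 tumors. Il1a at 5.46 ± 3.68 and Tnf at 5.34 ± 2.08 CPM per kb followed, and Il1a exceeded Tnf in 3 of 7 tumors, so their order did not differ beyond the spread. The means of Il11 (2.42 ± 5.62 CPM per kb), Lif (1.75 ± 1.38), Osm (0.928 ± 0.928) and Il6 (0.901 ± 1.98) came next. Il11 exceeded Lif in 1 of 7 tumors, and Il6 exceeded Ifng in 2 of 7. Ifng at 0.492 ± 0.424, Il17a at 0.483 ± 0.604 and Il22 at 0.187 ± 0.444 CPM per kb were lowest. Without Dnmt3a(+/-)-BM tumor 2, 8 of the 10 ranks differed, and Il11 moved from rank 4 to rank 7 and Il6 from rank 7 to rank 9.

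A single tumor held the highest CPM of 9 of the 10 genes. This was Dnmt3a(+/-)-BM tumor 2 for all but Ifng, which was highest in Dnmt3a(+/+)-BM tumor 3. Over all 15810 genes tested, that tumor was the highest for 24.7%. It held 91.1% of the CPM of Il22 summed over the 7 tumors, 89.6% for Il11, 85.4% for Il6 and 51.0% for Il17a, where an even split would give each tumor the same part. A share above 50% lay in that tumor for 1.54% of the genes tested. The lowest value was in Dnmt3a(+/-)-BM tumor 4 for 6 of the 10 genes, against 13.6% of the genes tested. Low and high ends of the range were thus both found within the Dnmt3a(+/-)-BM group.

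**Figure D1:**
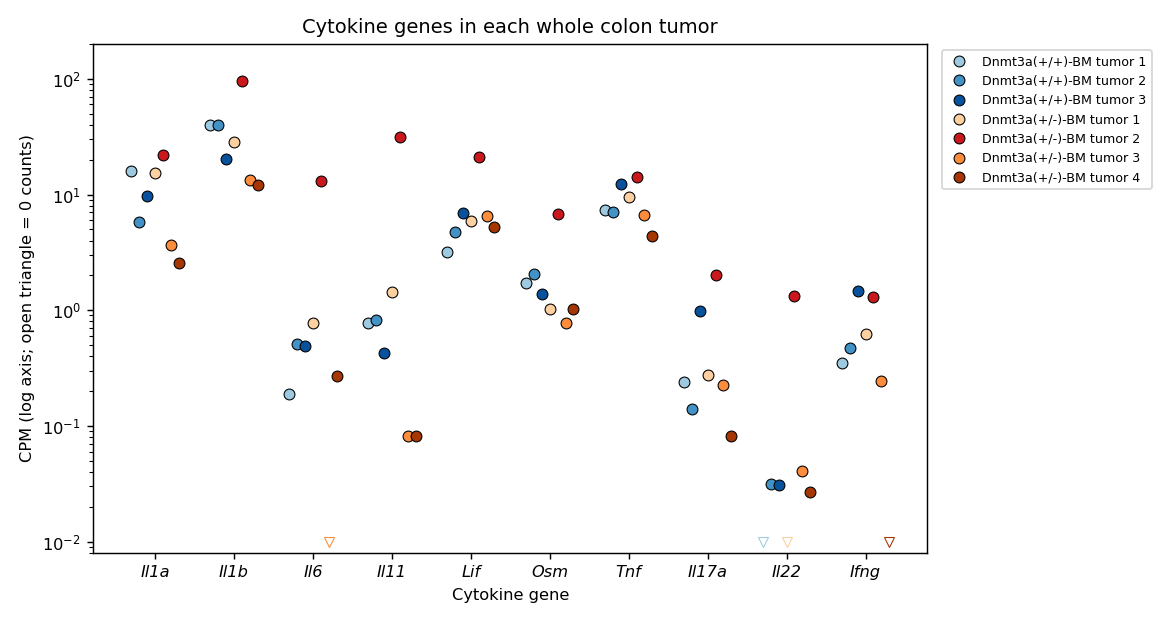
CPM of each cytokine gene (log axis) in each of the 7 whole colon tumors, blue for Dnmt3a(+/+) BM and orange to red for Dnmt3a(+/-) BM; open triangles mark 0 counts. Dnmt3a(+/-)-BM tumor 2, in bright red, is the highest point for 9 of 10 genes. Among the other 6 tumors the groups overlap for 9 of the 10 genes, and for Osm they do not.

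**Figure D2:**
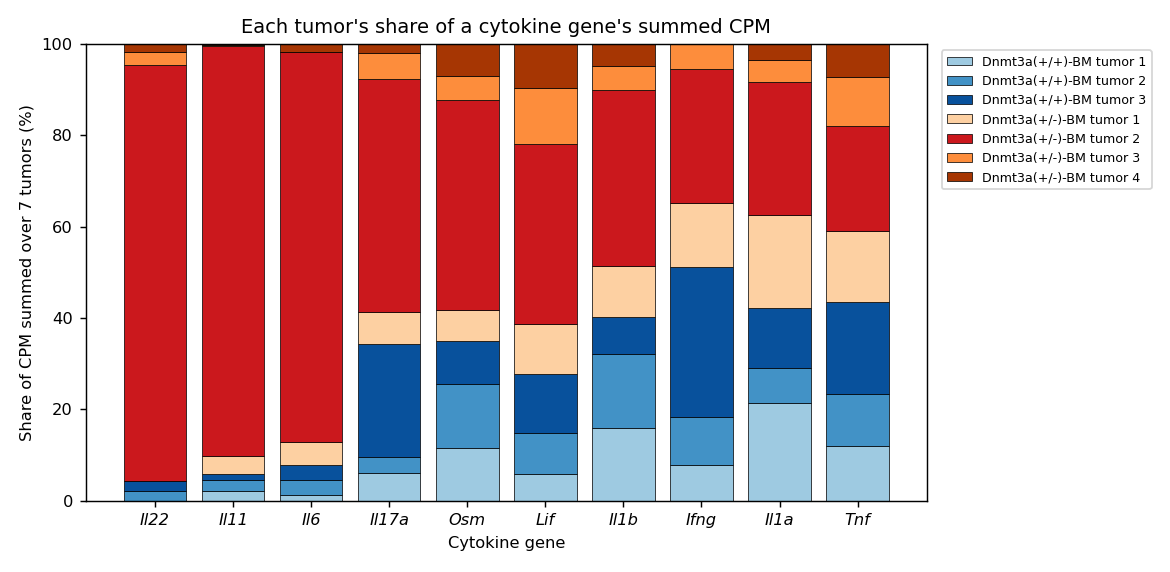
Each tumor's share, in percent, of the CPM of a cytokine gene summed over the 7 tumors, with genes ordered by the share of Dnmt3a(+/-)-BM tumor 2. That share runs from 91.1% for Il22 to 22.9% for Tnf.

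Il6 (GRCm38 chr5:30013114-30019981, plus strand), the cytokine that drives acute phase genes and STAT3 in epithelium, and Il11 (chr7:4772373-4782859, minus strand), a mainly stromal relative, are shown here with the 250 bases before a RefSeq transcription start because their counts lay almost wholly in 1 tumor. The window before the second of 2 Il11 starts is given. Tnf (chr17:35199381-35202007, minus strand), the gene with the smallest spread, is set beside them. The sequences are those of RefSeq on GRCm38.p6, at chr5:30012864-30013113, chr7:4778142-4778391 and chr17:35202008-35202257, read 5′ to 3′ on the gene's strand, with matches to the searched motifs in capitals.
Il6: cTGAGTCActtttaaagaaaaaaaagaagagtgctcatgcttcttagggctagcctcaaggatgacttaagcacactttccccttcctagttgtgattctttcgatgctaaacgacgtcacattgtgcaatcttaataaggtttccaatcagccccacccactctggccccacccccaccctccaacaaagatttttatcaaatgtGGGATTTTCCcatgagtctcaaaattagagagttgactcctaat
Il11: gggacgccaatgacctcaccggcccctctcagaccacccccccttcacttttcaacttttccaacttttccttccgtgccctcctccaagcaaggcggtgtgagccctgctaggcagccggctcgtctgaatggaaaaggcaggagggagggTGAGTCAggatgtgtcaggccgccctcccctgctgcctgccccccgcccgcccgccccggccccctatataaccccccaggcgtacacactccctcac
Tnf: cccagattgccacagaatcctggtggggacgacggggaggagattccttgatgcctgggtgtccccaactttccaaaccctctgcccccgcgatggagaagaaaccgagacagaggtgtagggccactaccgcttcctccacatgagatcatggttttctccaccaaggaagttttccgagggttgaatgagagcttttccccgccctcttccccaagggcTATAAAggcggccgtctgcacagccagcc

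Motifs were searched on both strands, and no matches overlapped. The AP-1 letters TGANTCA were found before Il6 and Il11 and not before Tnf. In all they were found before 5 of the 9 cytokine genes with a RefSeq window (Il1a, Il6, Il11, Lif and Il17a), against 6.75% of 32851 windows of the same length. Il11 was counted by the window printed above. The window before its other start held no match to any motif searched, whereas the 6.75% counts each window singly. An NF-kB consensus match was found before Il6 alone among the 9, as GGGATTTTCC, against 3.9% of all windows. The TATAAA letters were found before 6 of the 9 (Il1a, Il1b, Tnf, Il17a, Il22 and Ifng), against 12.4%, and the STAT letters TTCNNNGAA before Ifng alone, against 7.02%. Osm had no window in the table used. These matches describe letters only.

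Il6 had 7, 33 and 16 counts (0.188, 0.515 and 0.489 CPM) in Dnmt3a(+/+)-BM tumors 1 to 3. It had 31, 642, 0 and 10 counts (0.773, 13.1, 0 and 0.270 CPM) in Dnmt3a(+/-)-BM tumors 1 to 4. The second of these was 16.9-fold above the next highest tumor, while 0 counts in tumor 3 allowed up to 0.0609 CPM. The groups overlapped, with means of 0.398 ± 0.182 CPM (SD, n = 3) and 3.53 ± 6.37 CPM (SD, n = 4). The log2 fold change was 3.14 (SE 1.88, edgeR adjusted p = 0.566), and -0.20 (SE 1.18) without Dnmt3a(+/-)-BM tumor 2.

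Il11 had 29, 53 and 14 counts (0.779, 0.827 and 0.428 CPM) with Dnmt3a(+/+) BM. With Dnmt3a(+/-) BM it had 58, 1548, 4 and 3 counts (1.45, 31.5, 0.0812 and 0.0811 CPM). Both the highest and the 2 lowest values were in the Dnmt3a(+/-)-BM group, so the groups overlapped at both ends. Among the 15810 genes tested, none had a larger coefficient of variation over the 7 tumors than Il11, at 233%, and 0.0569% had a larger one than Il6, at 220%. The log2 fold change of Il11 was 3.60 (SE 2.00, edgeR adjusted p = 0.534), and -0.34 (SE 1.09) without Dnmt3a(+/-)-BM tumor 2.

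Lif (chr11:4257557-4272514, plus strand), which supports stem cell and epithelial repair programs, was more even. It was at 3.17, 4.70 and 6.91 CPM with Dnmt3a(+/+) BM and at 5.94, 20.98, 6.50 and 5.19 CPM with Dnmt3a(+/-) BM. Its group means were 4.93 ± 1.88 CPM (SD, n = 3) and 9.65 ± 7.57 CPM (SD, n = 4). Lif was the only one of the 8 genes tested without Dnmt3a(+/-)-BM tumor 2 whose log2 fold change stayed above 0, at 0.28 (SE 0.35), against 0.97 (SE 0.58, edgeR adjusted p = 0.562) with all 7 tumors. Without that tumor the coefficient of variation of Lif was 25.2%, smaller than that of 51.9% of the genes tested.

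Osm (chr11:4236420-4241026, plus strand), a myeloid and T cell product that activates stromal cells in colitis, was at 1.72, 2.06 and 1.38 CPM with Dnmt3a(+/+) BM. It was at 1.02, 6.78, 0.772 and 1.03 CPM with Dnmt3a(+/-) BM. Apart from Dnmt3a(+/-)-BM tumor 2, every Dnmt3a(+/-)-BM tumor lay below every Dnmt3a(+/+)-BM tumor. Osm was the 1 gene of the 10 whose groups did not overlap without that tumor. Its exact permutation p was then 0.1, two-sided, the smallest that 3 tumors against 3 can give. The share of all genes without overlap in the same tumors was not taken, so this does not set Osm apart. The log2 fold change was 0.48 (SE 0.82, edgeR adjusted p = 0.874) with all 7 tumors and -0.84 (SE 0.35, edgeR adjusted p = 0.698) without it.

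Il1b (chr2:129364570-129371139, minus strand), made as an inactive precursor mostly by myeloid cells, was the most abundant of the 10 genes, at 40.2, 40.1 and 20.3 CPM with Dnmt3a(+/+) BM. It was at 28.3, 96.4, 13.3 and 12.1 CPM with Dnmt3a(+/-) BM. The top tumor was 2.40-fold above the next, and Dnmt3a(+/-)-BM tumors 3 and 4 were the lowest of all 7. Il1a (chr2:129299610-129309972, minus strand), an alarm signal also made by epithelium, was at 16.1, 5.84 and 9.79 CPM with Dnmt3a(+/+) BM and at 15.5, 21.9, 3.70 and 2.57 CPM with Dnmt3a(+/-) BM. The same 2 tumors were lowest for Il1a. The log2 fold changes were 0.16 (SE 0.73, edgeR adjusted p = 0.960) for Il1b and 0.05 (SE 0.76, edgeR adjusted p = 0.991) for Il1a. Without Dnmt3a(+/-)-BM tumor 2 they were -0.89 (SE 0.41, edgeR adjusted p = 0.730) and -0.53 (SE 0.72). Exons of Il1a and Il1b overlap the opposite-strand genes Gm14023 and Il1bos by 222 and 45 bases. These held 8 to 34 and 2 to 21 counts per tumor, and the strand setting of the counting was not stated.

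Tnf, the macrophage and T cell cytokine that activates NF-kB, was the most even of the 10 over the 7 tumors, with a coefficient of variation of 38.9%. It was at 7.36, 7.01 and 12.3 CPM with Dnmt3a(+/+) BM and at 9.58, 14.1, 6.60 and 4.41 CPM with Dnmt3a(+/-) BM. The highest and the lowest tumor were both in the Dnmt3a(+/-)-BM group. The means were 8.88 ± 2.94 CPM (SD, n = 3) and 8.66 ± 4.18 CPM (SD, n = 4), with a log2 fold change of -0.03 (SE 0.43, edgeR adjusted p = 0.988).

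The lymphocyte cytokines had low counts in most tumors, but only Il22 was mostly at or under the limit of 3 counts. Without Dnmt3a(+/-)-BM tumor 2, Il6 was lower than Il17a and Ifng, at 0.154 against 0.276 and 0.406 CPM per kb. Il17a (chr1:20730905-20734496, plus strand), which induces neutrophil chemokines in epithelium, had 9, 9 and 32 counts (0.242, 0.141 and 0.979 CPM) with Dnmt3a(+/+) BM. It had 11, 99, 11 and 3 counts (0.274, 2.02, 0.223 and 0.0811 CPM) with Dnmt3a(+/-) BM. Dnmt3a(+/-)-BM tumor 2 was 2.06-fold above Dnmt3a(+/+)-BM tumor 3, and the log2 fold change was 0.55 (SE 1.16, edgeR adjusted p = 0.904). Without that tumor Il17a fell under the count filter.

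Il22 (chr10:118204942-118210047, plus strand), which acts on epithelial cells to promote repair and antimicrobial proteins, had 0, 2 and 1 counts with Dnmt3a(+/+) BM. It had 0, 65, 2 and 1 counts with Dnmt3a(+/-) BM, so it was above the limit of 3 counts per library in 1 of 7 tumors. It did not pass the filter, and edgeR gave it no test. From 68 and 3 counts in all, the Dnmt3a(+/-)-BM over Dnmt3a(+/+)-BM ratio was 17.3 (exact binomial 95% interval 5.68 to 86.0, counting error only). That interval leaves out the spread between tumors, and 65 of the 68 counts came from 1 tumor, so it does not show a difference between groups. Without Dnmt3a(+/-)-BM tumor 2, 3 counts stood against 3 and no fold is given. The near-identical copy Iltifb had 0 counts in all 7 tumors.

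Ifng (chr10:118441046-118445892, plus strand), which activates macrophages and antigen presentation, had 13, 30 and 48 counts (0.349, 0.468 and 1.47 CPM) with Dnmt3a(+/+) BM. It had 25, 64, 12 and 0 counts (0.624, 1.30, 0.244 and 0 CPM) with Dnmt3a(+/-) BM. Unlike the other 9 genes, its highest CPM was in a Dnmt3a(+/+)-BM tumor. The log2 fold change was -0.47 (SE 1.15, edgeR adjusted p = 0.921), and -1.36 (SE 1.16) without Dnmt3a(+/-)-BM tumor 2.

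No cytokine gene passed the test between groups. edgeR's quasi-likelihood test called 0 of the 9 genes tested with an adjusted p under 0.05 and a log2 fold change beyond 1 in either direction, against 0 of all 15810 genes (0.0%). At an unadjusted p under 0.05 it held 0 of the 9, against 5.83% of all genes higher and 5.2% lower with Dnmt3a(+/-) BM, and DESeq2 called 0 of the 6 that it gave a p and 300 (1.87%) of 16056 genes. DESeq2 gave no p for 4 of the 10 (Il6, Il11, Osm and Il22) because of an outlying count, as for 0.974% of the genes edgeR tested. The median log2 fold change of the 9 was 0.48, with 7 above 0, beside 0.00 over all genes tested. Exact permutation tests of log2(CPM + 0.5) over the 35 splits of the tumors gave p from 0.314 to 1, two-sided, for the 10 genes, where 0.0286 is the smallest possible. The mean log2(CPM + 0.5) of Il1a, Il1b and Osm was lower with Dnmt3a(+/-) BM, by -0.32, -0.30 and -0.03, although their edgeR fold changes were above 0. A p that misses the threshold does not show that the groups were alike.

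**Figure D3:**
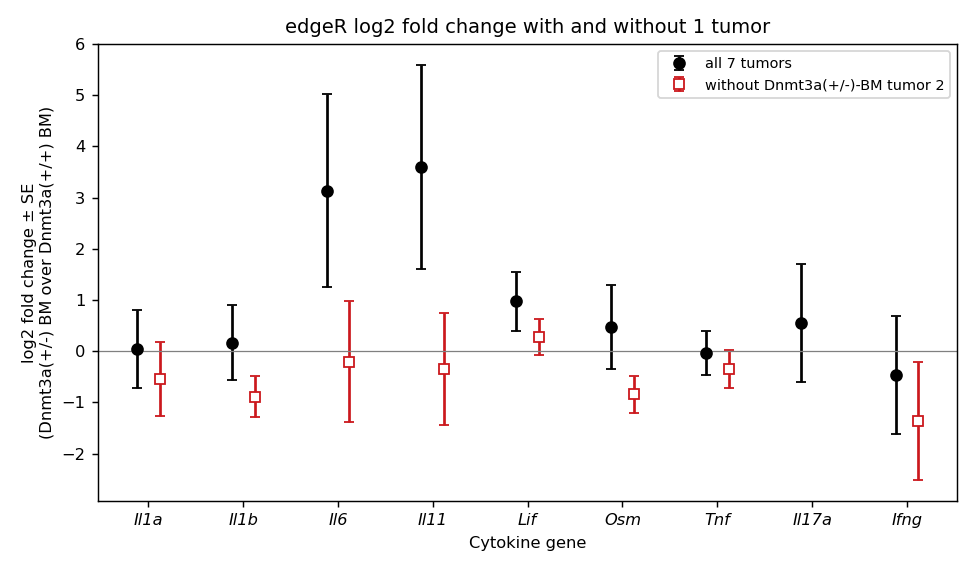
log2 fold change (Dnmt3a(+/-) BM over Dnmt3a(+/+) BM, edgeR) of the 9 cytokine genes tested, with its SE as error bar, for all 7 tumors (black) and without Dnmt3a(+/-)-BM tumor 2 (red; Il17a was not tested there). Values run from -0.47 to 3.60 with all tumors and from -1.36 to 0.28 without that tumor.

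The sign of the log2 fold change turned for 5 genes (Il1a, Il1b, Il6, Il11 and Osm) when 1 tumor was left out. Without Dnmt3a(+/-)-BM tumor 2, 7 of the 8 genes tested had a log2 fold change below 0, beside 46.9% of all genes, and their median was -0.44. None of the 8 had an unadjusted edgeR p under 0.05, against 4.0% of all genes higher and 3.15% lower with Dnmt3a(+/-) BM. In DESeq2 2 genes, Il1b and Osm, had an unadjusted p under 0.05, with DESeq2 adjusted p of 0.614 and 0.508. So did 1330 genes in all in that DESeq2 run. Their share of the genes tested was not taken, so this does not set Il1b and Osm apart. Leaving out other tumors turned the sign of 4 genes that were near 0 or sparse. Without Dnmt3a(+/+)-BM tumor 3, which had the highest Ifng, the value was just below 0 for Il1a, -0.09 for Il1b, 0.28 for Tnf and 0.42 for Ifng. That of Il1a was also below 0 without Dnmt3a(+/+)-BM tumor 2 or Dnmt3a(+/-)-BM tumor 1, and that of Tnf was above 0 without Dnmt3a(+/-)-BM tumor 3 or 4. The difference was also taken within each experiment. In BMT18 the difference of mean log2(CPM + 0.5) was above 0 for 10 of the 10 genes, from 0.38 for Il1b to 2.60 for Il11, and without Dnmt3a(+/-)-BM tumor 2 it was above 0 for 7. In BMT8, with 1 tumor against 2, it was below 0 for 9 of the 10, from -0.23 for Lif to -1.69 for Ifng, and 0.01 for Il22. The share of all genes with these signs was not taken, so they are not shown to be particular to cytokine genes. A term for BM genotype by experiment had an unadjusted edgeR p under 0.05 for 5 of the 9 genes tested (Il1a, Il11, Tnf, Il17a and Ifng), against 4.62% of all genes, and no gene of the 15810 had an adjusted p under 0.05 for it. That term rests on 1 Dnmt3a(+/+)-BM tumor in BMT8, assumed to vary like the other tumors, and Dnmt3a(+/-)-BM tumor 2 is 1 of the 2 Dnmt3a(+/-)-BM tumors in BMT18. With the experiment as a covariate, the log2 fold change was 1.80 (SE 2.11) for Il6, 1.94 (SE 1.99) for Il11, 0.29 for Il17a, -0.78 for Ifng, 0.09 for Il1b and -0.26 for Il1a.

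Markers of several cell types were also highest in Dnmt3a(+/-)-BM tumor 2. In bulk tumors, fewer cells of a type and less RNA per cell cannot be told apart. The summed CPM of 8 fibroblast markers was between 158 and 311 with Dnmt3a(+/+) BM, between 239 and 365 in the other Dnmt3a(+/-)-BM tumors and 1027 in tumor 2, with 8 of 8 genes highest there. The 6 leukocyte markers summed to between 37.1 and 93.7 CPM with Dnmt3a(+/+) BM, to between 35.4 and 91.4 CPM in the other Dnmt3a(+/-)-BM tumors and to 166.0 CPM in tumor 2, with 6 of 6 genes highest there. The 8 macrophage markers summed to between 147 and 231 CPM with Dnmt3a(+/+) BM and to between 153 and 358 CPM with Dnmt3a(+/-) BM, and 6 of 8 were highest in tumor 2. The 8 T cell markers summed to between 8.74 and 20.6 CPM and to between 5.46 and 25.5 CPM in the respective groups. Of these, 4 of 8 were highest in tumor 2. Dnmt3a(+/-)-BM tumor 4, where Ifng had 0 counts, had the lowest T cell sum, and Cd8a was at 0 there. Endothelial markers ran from 9.99 to 21.1 CPM and from 20.4 to 120 CPM, also highest in tumor 2. Epithelial markers, with Epcam, Cdx2 and Krt20 detected in every tumor, were lowest there, at 7294 CPM against 9305 to 22319 CPM elsewhere.

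The sum of the 8 neutrophil markers went the other way, at 137 CPM in Dnmt3a(+/-)-BM tumor 2 and between 213 and 310 CPM in the other 6 tumors. Ly6g held much of the sum and the granule gene Ngp was near 0 throughout. Not every gene of the list followed the sum, since 2 of the 8 were highest in Dnmt3a(+/-)-BM tumor 2. The 5 ILC3 and Th17 markers, of which Il23r and Ccr6 were too low to test, summed to between 32.3 and 116 CPM with Dnmt3a(+/+) BM and to between 43.9 and 93.6 CPM with Dnmt3a(+/-) BM. Smooth muscle markers were at 22.6 CPM in Dnmt3a(+/+)-BM tumor 3 and between 243 and 1167 CPM in the others.

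**Figure D4:**
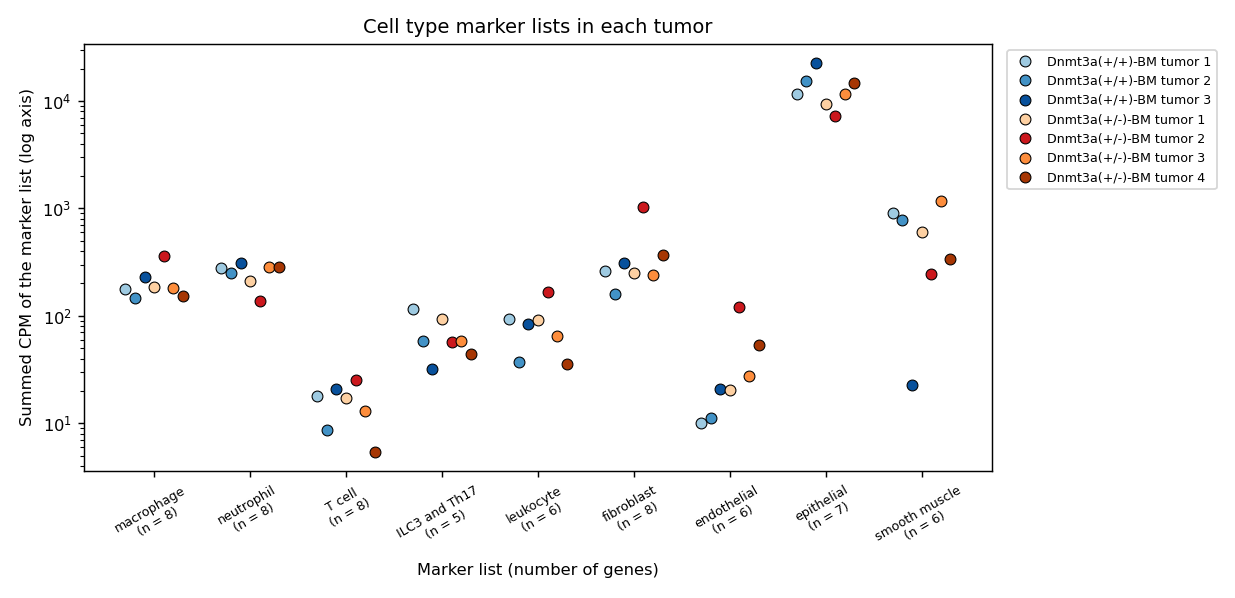
Summed CPM (log axis) of 9 marker lists in each tumor, with the number of genes in each list. Fibroblast, endothelial, leukocyte, macrophage and T cell lists are highest and epithelial and neutrophil lists lowest in Dnmt3a(+/-)-BM tumor 2.

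Relative to these lists, the number of cytokine genes highest in Dnmt3a(+/-)-BM tumor 2 depended on the list. Per 1000 CPM of leukocyte markers, 4 of the 10 genes (Il6, Il11, Il17a and Il22) were still highest in Dnmt3a(+/-)-BM tumor 2, at 78.8 against 0 to 13.9 in the other 6 tumors for Il6 and at 190.0 against 1.25 to 22.3 for Il11. Il1a at 132 (57.1 to 172 elsewhere), Il1b at 581 (205 to 1080), Lif at 126 (33.8 to 147), Osm at 40.9 (11.2 to 55.5) and Tnf at 84.7 (78.6 to 189) lay inside the range of the other 6 tumors. Per 1000 CPM of fibroblast markers, 3 of the 10 remained highest there, Il6 at 12.7 (0 to 3.26 elsewhere), Il11 at 30.7 (0.222 to 5.78) and Il22 at 1.29 (0 to 0.198). Per 1000 CPM of macrophage markers, 6 of the 10 were highest there (Il6, Il11, Lif, Osm, Il17a and Il22), with Lif at 58.7 (17.8 to 35.6 elsewhere) and Osm at 19.0 (4.22 to 14.0). Per 1000 CPM of T cell markers, 5 were (Il6, Il11, Osm, Il17a and Il22). Il6, Il11 and Il22 were highest there by each of these 4 lists, and the part of any cell type in their levels was not tested.

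No receptor chain of the 10 cytokines passed the test. All 15 were tested, 0 were called, and at an unadjusted p under 0.05 there were 0 higher and 2 lower, and the median log2 fold change was -0.14. The shared gp130 chain Il6st was at 37.1 ± 6.83 CPM (SD, n = 3) and 62.5 ± 26.6 CPM (SD, n = 4), highest in Dnmt3a(+/-)-BM tumor 2 at 99.3 CPM (log2 fold change 0.75, SE 0.33, edgeR adjusted p = 0.460). Lifr, the chain that LIF uses with gp130, was at 28.5 CPM in that tumor and between 3.98 and 7.72 CPM elsewhere. Il11ra1 was between 11.6 and 21.9 CPM, Il6ra between 0.795 and 6.96 CPM and Osmr between 10.9 and 29.1 CPM, with overlapping groups. Per kilobase, gp130 at 4.65 ± 2.12 CPM per kb exceeded the mean of each of its 4 ligands over the 7 tumors. In Dnmt3a(+/-)-BM tumor 2 Il11 reached 15.2, Il6 5.39, Lif 4.82 and Osm 2.99 CPM per kb. These are not to be set against the gp130 mean, since gp130 was itself highest in that tumor.

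The IL-17 chain Il17rc was at 83.6 ± 8.73 CPM (SD, n = 3) and 47.2 ± 17.7 CPM (SD, n = 4), with no overlap (log2 fold change -0.82, SE 0.28, unadjusted p = 0.0196, edgeR adjusted p = 0.406), where 6.32% of all genes were lower in every Dnmt3a(+/-)-BM tumor. Its partner Il17ra was at 20.96 ± 1.63 and 16.7 ± 3.04 CPM. The interferon-gamma chain Ifngr1 was at 284 ± 37.6 CPM (SD, n = 3) and 195 ± 43.1 CPM (SD, n = 4), also without overlap (log2 fold change -0.54, SE 0.22, unadjusted p = 0.0386, edgeR adjusted p = 0.433), and Ifngr2 was at 226 ± 26.0 and 177 ± 24.4 CPM. The IL-22 chains Il22ra1 and Il10rb were at 27.8 ± 13.7 and 78.4 ± 10.5 CPM with Dnmt3a(+/+) BM and at 13.9 ± 8.26 and 59.9 ± 14.8 CPM with Dnmt3a(+/-) BM. For TNF, Tnfrsf1a was at 126 ± 24.9 and 97.0 ± 17.9 CPM and Tnfrsf1b at 100.3 ± 27.4 and 91.0 ± 37.4 CPM. The IL-1 chains Il1r1, at 20.9 ± 13.9 and 24.3 ± 10.3 CPM, and Il1rap, at 7.41 ± 3.15 and 7.73 ± 3.58 CPM, overlapped between groups.

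**Figure D5:**
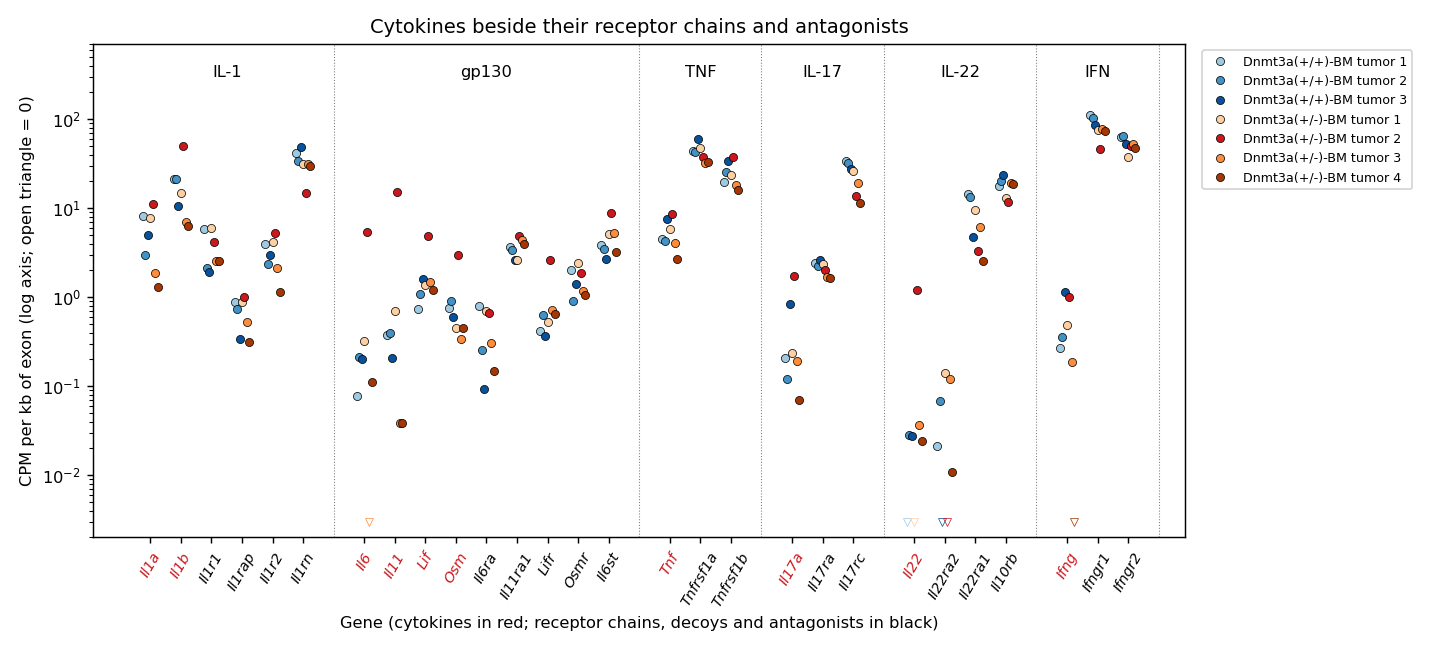
CPM per kb of exon (log axis) of each cytokine gene (red names) and of its receptor chains, decoys and antagonists (black names) in each tumor; open triangles mark 0 counts. Ligands such as Il6, Il11 and Il22 spread over a wider range than their receptor chains, and Il1rn is the one IL-1 gene that is lowest in Dnmt3a(+/-)-BM tumor 2.

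The IL-1 receptor antagonist was not distributed like IL-1. Il1rn, which blocks the IL-1 receptor, was at 232, 189 and 270 CPM with Dnmt3a(+/+) BM and at 173, 82.0, 171 and 166 CPM with Dnmt3a(+/-) BM. Every Dnmt3a(+/-)-BM tumor lay below every Dnmt3a(+/+)-BM tumor, as for 6.32% of the genes tested. The log2 fold change of Il1rn was -0.64 (SE 0.28, edgeR unadjusted p = 0.0542, adjusted p = 0.462). Per kilobase, the ratio of Il1rn to the sum of Il1a and Il1b was 1.43, 1.42 and 3.13 with Dnmt3a(+/+) BM and 1.38, 0.240, 3.51 and 3.94 with Dnmt3a(+/-) BM. Only Dnmt3a(+/-)-BM tumor 2 was below 1, and the groups did not differ beyond the spread (exact permutation p = 0.886, two-sided, on log2 ratios). The decoy receptor Il1r2 was between 2.16 and 10.2 CPM, and the soluble IL-22 antagonist Il22ra2 between 0 and 0.349 CPM.

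Of 9 antagonists and feedback inhibitors tested, 0 were called, and 0 were higher and 1 lower at an unadjusted p under 0.05, and the median log2 fold change was -0.29. The one was Zc3h12a, an RNase that degrades cytokine transcripts, at 83.9 ± 12.5 CPM (SD, n = 3) and 59.2 ± 13.5 CPM (SD, n = 4) (log2 fold change -0.50, SE 0.20, edgeR adjusted p = 0.435). Socs3, the feedback inhibitor induced by STAT3, was between 38.9 and 47.8 CPM with Dnmt3a(+/+) BM and at 64.1, 137, 34.97 and 53.5 CPM with Dnmt3a(+/-) BM. Among 6 genes of the machinery that releases IL-1 and TNF, 1 was lower at an unadjusted p under 0.05. This was Pycard, the inflammasome adaptor, at 197 ± 30.8 CPM (SD, n = 3) and 93.8 ± 39.8 CPM (SD, n = 4), without overlap (log2 fold change -1.07, SE 0.37, edgeR adjusted p = 0.406). Like Il1rn and unlike Il1b, Pycard was lowest in Dnmt3a(+/-)-BM tumor 2, at 39.6 CPM.

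Genes that these cytokines induce were counted in the same fit. Of 10 STAT3 and IL-22 targets, 2 were higher and 0 lower at an unadjusted p under 0.05, and the median log2 fold change was -0.28. Lcn2, an iron-sequestering antimicrobial protein, was at 21.2, 17.8 and 29.9 CPM with Dnmt3a(+/+) BM and at 62.8, 550, 63.2 and 99.0 CPM with Dnmt3a(+/-) BM. All 4 tumors of the second group were above all 3 of the first, as for 6.12% of the genes tested. The log2 fold change was 3.08 (SE 0.89, unadjusted p = 0.0092, edgeR adjusted p = 0.373), and 1.73 without Dnmt3a(+/-)-BM tumor 2. Saa3, an acute phase protein, was at 8.34 ± 3.90 CPM (SD, n = 3) and 25.0 ± 17.4 CPM (SD, n = 4), with overlap (log2 fold change 1.59, SE 0.62, edgeR adjusted p = 0.426).

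Of 12 NF-kB and IL-17 targets, 0 were higher and 2 lower at an unadjusted p under 0.05, and the median log2 fold change was 0.06. Without Dnmt3a(+/-)-BM tumor 2 the median was -0.32, with 9 of the 12 below 0, beside 46.9% of all genes. Relb, a subunit of NF-kB, was at 69.8 ± 5.13 CPM (SD, n = 3) and 49.4 ± 4.22 CPM (SD, n = 4), and Nfkbiz, an NF-kB cofactor, was at 94.5 ± 3.06 and 70.0 ± 10.5 CPM. Neither pair of groups overlapped, and the edgeR adjusted p was 0.361 for Relb and 0.406 for Nfkbiz. Among the 12, 6 were highest in Dnmt3a(+/-)-BM tumor 2. Of 11 interferon-gamma targets, 0 were higher and 1 lower, and the median log2 fold change was -0.53. The one was the transcription factor Irf1, at 296 ± 90.1 CPM (SD, n = 3) and 181 ± 40.4 CPM (SD, n = 4), without overlap (log2 fold change -0.71, SE 0.26, edgeR adjusted p = 0.420). Without Dnmt3a(+/-)-BM tumor 2 the median of the interferon-gamma targets was -0.81, with 11 of 11 below 0.

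Of 22 related cytokines in the table, 10 were abundant enough to test, and 1 was higher and 0 lower at an unadjusted p under 0.05. Il23a, the specific subunit of IL-23 that sustains IL-17 and IL-22 producing cells, was at 1.02, 0.859 and 4.83 CPM with Dnmt3a(+/+) BM and at 2.74, 20.2, 7.03 and 6.97 CPM with Dnmt3a(+/-) BM (log2 fold change 2.05, SE 0.87, edgeR adjusted p = 0.448). In that group 3 tumors were above all Dnmt3a(+/+)-BM tumors, and tumor 1 was not. Over the 7 lists together, 3 of 73 genes were higher and 7 lower at an unadjusted p under 0.05, beside 5.83% and 5.2% of all genes. Groups did not overlap for 2 higher and 8 lower of the 73, beside 6.12% and 6.32%. Naming genes by a low p favors those without overlap. Without Dnmt3a(+/-)-BM tumor 2 the median log2 fold change was -0.24 for receptors, -0.30 for inhibitors and -0.47 for release machinery. It was -0.26 for STAT3 and IL-22 targets and 0.04 for related cytokines, beside 0.03 over all genes.

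For each cytokine gene the 3 genes of most similar pattern were those with the lowest root mean square difference of centred log2(CPM + 0.5) over the 7 tumors. For Il6 these were Hp (0.363), Ptgs2 (0.363) and Cemip (0.391), at 102, 111 and 94.6 CPM in Dnmt3a(+/-)-BM tumor 2. For Il11 they were Serpina3f (0.520), Il6 (0.524) and Igfbp5 (0.651). Il1b was nearest to Hgf (0.312), Clec4e (0.326) and Rnf125 (0.334), and Il1a to Alox12e (0.314), Cd4 (0.323) and Klrb1b (0.325). Lif was nearest to Aldh7a1, Csgalnact1 and 2310043M15Rik, Osm to Il13ra2, Plod2 and Kcnj8, and Il17a to Ccl9, Spry4 and F5. Tnf was nearest to Atp8b4 (0.131), Mx2 (0.150) and Stat2 (0.150), and Ifng to Mx2 (0.163), Tnf (0.196) and Lgals3bp (0.203). All of these genes other than the cytokines were highest in Dnmt3a(+/-)-BM tumor 2, against 24.7% of the genes tested. They were chosen for a pattern like that of cytokine genes, most of which were highest there. Their shared peak thus follows largely from the choice.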

How the data were processed

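Whole-tumor polyadenylated RNA of 7 colon tumors was sequenced, and per the labels 100 ng of RNA with an integrity number of 7.0 or more entered the library. The authors trimmed reads with Trimmomatic, aligned them to mm10 with STAR and quantified genes with RSEM, and the deposited values are its estimated counts, 100% of them whole numbers, without normalization. Gene positions and exon lengths were taken from GENCODE M21 (GRCm38). The 10 cytokine genes and all lists were chosen with earlier results of these data known.

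The test between groups was run in edgeR 4.0.16 under R 4.3.3 (library sizes scaled by TMM, filterByExpr with a minimum count of 10, quasi-likelihood test, Benjamini-Hochberg adjustment over 15810 genes, no covariate). Standard errors are the absolute log2 fold change over the square root of F. Two-sided exact permutation tests used log2(CPM + 0.5). The floor was 3 counts per library. Alternatives included DESeq2 1.42.0, other scalings and filters, the experiment as a covariate and each tumor left out in turn. DESeq2 without Dnmt3a(+/-)-BM tumor 2, and the order of levels without it, were added after seeing the data.

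All 10 cytokine genes were named, with their receptor chains, Il1rn, Il1r2, Il22ra2 and Socs3, every gene of the other lists with an unadjusted p under 0.05, and the 3 genes of most similar pattern. Il36a and Il36g were not matched. The labels give each tumor a biological replicate number, and the study counts as many mice as tumors per group but gives both group sizes the other way round elsewhere. The groups here follow the labels, and p-values measure the spread between these tumors. The scripts were tested on simulated data. Genes without a symbol held 0.104% of counts.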

Additional observations from a re-analysis of the deposited data

Results flagged for a closer look

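Within the 4 Dnmt3a(+/-)-BM tumors, 12 of 46 values examined had 1 tumor far from the other 3 by Dixon's criterion. Its nominal rate for normally distributed values is about 1 in 20, and the share over all genes tested was not taken. All 12 were in Dnmt3a(+/-)-BM tumor 2, which was the highest of 7 tumors for 24.7% of the genes tested and the lowest for 25.3%. They are thus not independent of each other. Of these, 6 were cytokine genes, all high: Il6 at 13.1 CPM, Il11 at 31.5 CPM, Lif at 20.98 CPM, Osm at 6.78 CPM, Il17a at 2.02 CPM and Il22 at 1.32 CPM. Il1a, Il1b, Tnf and Ifng did not meet the criterion. The receptor chain Lifr was high at 28.5 CPM and the antimicrobial gene Lcn2 at 550 CPM. Low values were found for Ifngr1 at 131 CPM and for the antagonist Il1rn at 82.0 CPM. The macrophage and fibroblast marker lists were high, at 358 and 1027 CPM. Their part in the cytokine values was not tested.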

How the results depend on the processing

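The count of cytokine genes called was 0 under edgeR and DESeq2 in each alternative run, and no permutation p was under 0.05. With a tumor left out, however, the exact permutation test could not reach 0.05. Without Dnmt3a(+/-)-BM tumor 2, for instance, its smallest possible two-sided p was 0.1. Those runs therefore add nothing to the permutation result. For all genes, edgeR's 0 became 300 with DESeq2 and 171 with DESeq2 without Dnmt3a(+/-)-BM tumor 2, where 1 listed pathway gene, Lcn2, was called. The order of levels differed at 6 of 10 genes by the median, 2 by the longest transcript, 5 by coding length and 8 without that tumor.

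With 1 tumor left out, the log2 fold change ranged from -0.53 to 0.48 for Il1a, -0.89 to 0.46 for Il1b, -0.20 to 3.56 for Il6, -0.34 to 4.02 for Il11, -0.84 to 0.78 for Osm, -0.35 to 0.28 for Tnf, -1.36 to 0.42 for Ifng, -0.067 to 0.91 for Il1r1, -0.24 to 0.32 for Il1rap, -0.21 to 1.37 for Il6ra, -0.076 to 0.51 for Osmr, -0.43 to 0.084 for Tnfrsf1b and -0.30 to 0.33 for Il1r2. The difference of log2(CPM + 0.5) ranged from -0.80 to 0.16 for Il1a, -0.93 to 0.054 for Il1b, -0.16 to 1.42 for Il6, -0.42 to 1.51 for Il11, -0.62 to 0.22 for Osm, -0.37 to 0.16 for Tnf, -0.37 to 0.46 for Il17a and -0.65 to 0.039 for Ifng.

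DESeq2 without Dnmt3a(+/-)-BM tumor 2 gave log2 fold changes of -0.53 for Il1a, -0.90 for Il1b, -0.21 for Il6, -0.34 for Il11, -0.88 for Osm, -1.19 for Il17a, -0.17 for Il1rap and -0.30 for Il1r2. The experiment as a covariate gave -0.26 for Il1a and -0.015 for Il1r2. Library sizes alone, which moved the median of all genes from 0.00 to 0.21, gave 0.24 for Tnf and 0.12 for Tnfrsf1b. BMT18 alone gave 0.73 for Tnf, 1.25 for Ifng and 0.45 for Tnfrsf1b.

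The log2(CPM + 0.5) difference turned within BMT18 for Il1a (0.88), Il1b (0.38), Osm (0.48), Tnf (0.66) and Ifng (0.65), and within BMT8 for Il6 (-0.67), Il11 (-0.68), Lif (-0.23) and Il17a (-1.19). For Osm it was 0.059 with a pseudocount of 2 and 0.13 with library sizes alone, and for Tnf 0.10 with library sizes alone. The cause was not tested.

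Replicate numbers did not pair the tumors: same-numbered tumors correlated at 0.610, 0.113 and -0.073, and not every tumor correlated best with its own number. With the number as a block, Il6 was 1.57, Il11 1.39, Tnf 0.17 and Ifng 0.035, and the count of genes called was 0. With 4 tumors against 3 and 0 to 65 counts for Il22, small differences could not be detected.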
